A study of Homo sapiens with 8 samples.

Results

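The regions described here are the CENP-B-covered parts of human chromosomes 4 and 9 in U2OS cells. They were chosen by position alone, as every 1 kb window of these 2 chromosomes that held at least 1 covered base in control or in ERCC6L2-/- cells. This gave 4144 windows of the 35604 in the whole series, 1863 on chromosome 4 and 2281 on chromosome 9. U2OS is a human osteosarcoma cell line. The study immunoprecipitated CENP-B with antibody ab25734 from chromatin that had been cross-linked and digested with micrococcal nuclease, and sequenced the recovered DNA. There were 3 immunoprecipitates from control cells, labelled WT, and 3 from cells lacking ERCC6L2, with 1 input of each background, and all were grown under the same conditions in DMEM with serum. The knockout cells came from CRISPR/Cas9-edited lines grown up from single cells, and the labels do not say which clone was used. The files give 1 pooled value per base and group, in reads, and only inside peaks shared by a group's replicates. Hence every difference below is a description of 2 pooled profiles, with no replicate error and no test, and a base without coverage in one group is a base outside that group's peaks, not a base shown to lack CENP-B.

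CENP-B is the centromere protein that recognises a specific DNA motif, the CENP-B box, within α-satellite, the tandem repeat of human centromeres. It helps to hold CENP-A and CENP-C at the centromere and shapes the chromatin of the arrays. ERCC6L2 is a DNA translocase of the SNF2 family. The α-satellite arrays of chromosomes 4 and 9 belong to the same suprachromosomal family, in which monomers that carry a box alternate with monomers that do not. In the GRCh38 assembly, which provides the coordinates, centromeric arrays are modelled sequences, so the order of positions within an array is not a measured order of repeats in U2OS cells.

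The sequences below show what CENP-B can recognise on the chromosomes compared here and how alike they are. Boxes were found as matches to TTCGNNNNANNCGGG on either strand and are printed with the 1 base on each side, 17 bases in all, with the searched core in capitals. Counts for an array include box-rich sequence beside its covered domains. The first sequence was the commonest box in the array of chromosome 4 (3550 of 5012 boxes, 70.8%), in the array of chromosome 9 (5058 of 5541, 91.3%) and in a separate block on the long arm of chromosome 9 (250 of 275, 90.9%). The others are the next 2 in frequency on chromosome 4, which carry the substitutions A17T and A12G, and the second commonest of chromosome 9, with A11C, counting from the 5′ end of the 17 bases.
Commonest box on both chromosomes: tTTCGTTGGAAACGGGa
Second box of chromosome 4: tTTCGTTGGAAACGGGt
Next box of chromosome 4: tTTCGTTGGAAGCGGGa
Second box of chromosome 9: tTTCGTTGGACACGGGa

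The longer stretches below are centred on the box with the highest control coverage in the deepest window covered in both groups, and in the deepest window covered in control only, on each chromosome. Each has 171 bases, written 5′ to 3′ along the strand of the box, with the 17 bases of the box in capitals.
Chromosome 4, covered in both groups (chr4:50677226-50677396, plus strand): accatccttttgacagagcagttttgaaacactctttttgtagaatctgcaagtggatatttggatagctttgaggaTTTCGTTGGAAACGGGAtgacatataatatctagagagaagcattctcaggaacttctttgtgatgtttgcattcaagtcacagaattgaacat
Chromosome 4, covered in control only (chr4:49708781-49708951, minus strand): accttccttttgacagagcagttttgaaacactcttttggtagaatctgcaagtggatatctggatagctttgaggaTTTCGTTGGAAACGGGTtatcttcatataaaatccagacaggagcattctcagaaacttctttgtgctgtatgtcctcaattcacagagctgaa
Chromosome 9, covered in both groups (chr9:60610495-60610665, minus strand): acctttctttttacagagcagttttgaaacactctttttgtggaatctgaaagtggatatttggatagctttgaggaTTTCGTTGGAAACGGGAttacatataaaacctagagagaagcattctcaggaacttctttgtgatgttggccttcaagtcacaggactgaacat
Chromosome 9, covered in control only (chr9:60674443-60674613, minus strand): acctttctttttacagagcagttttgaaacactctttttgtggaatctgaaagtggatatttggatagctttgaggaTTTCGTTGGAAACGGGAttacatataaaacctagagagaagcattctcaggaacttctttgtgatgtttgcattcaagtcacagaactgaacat
Both chromosome 9 stretches lie in the block on the long arm, so that no stretch of the main chromosome 9 array is shown. The chromosome 9 stretch covered in both groups and the one covered in control only were identical at 168 of 171 bases. All 3 differences lay outside the box. The stretch of chromosome 4 covered in both groups matched them at 159 and 162 bases, with the same box. The chromosome 4 stretch covered in control only lies outside the main array and matched the other chromosome 4 stretch at 113 of 171 bases in an ungapped comparison, with A17T inside the box. A box was present in 98.2% of the covered windows of chromosome 4 and 99.6% of those of chromosome 9, against 0.137% and 0.128% of the remaining windows of these chromosomes that hold no unknown base.

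Most of the control CENP-B coverage of both chromosomes lay outside the ERCC6L2-/- peaks, but to unequal extents. Of the 1835 windows of chromosome 4 covered in control, 696 (37.9%) had some ERCC6L2-/- coverage and are called kept, and 1139 (62.1%) had none and are called lost. Of the 2281 on chromosome 9, 104 (4.56%) were kept and 2177 (95.4%) were lost. Over all sequences, 40.5% of the windows covered in control were lost, so the lost share was above this background on both chromosomes. With a looser criterion, a ratio of mean coverage plus 1 under 0.5, 1164 windows of chromosome 4 and 2279 of chromosome 9 were lower in ERCC6L2-/- cells, against 44.6% of all windows. Ordered by kept share, chromosome 9 was second lowest and chromosome 4 seventh lowest of 21 chromosomes with control coverage. Among other chromosomes of the same family, the kept share was 97.3% on chromosome 2 and 41.0% on chromosome 20, or 68.9% over both. It was 34.8% over chromosomes 13, 14, 21 and 22, from 27.9% on chromosome 22 to 43.4% on chromosome 21. The remaining members of the family were spread widely, with 2.75% kept on chromosome 18 (291 control windows), 68.9% on chromosome 8 (1689) and 94.1% on chromosome 15 (17). Chromosome 9 therefore lay closest to chromosome 18, and chromosome 4 within the range of chromosomes 13, 14, 20, 21 and 22. These differences between chromosomes could not be tested.

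The covered bases gave the same order as the windows. Chromosome 4 had 1825994 control-covered bases, of which 673400 (36.9%) were covered in ERCC6L2-/- cells, whereas on chromosome 9 these numbers were 2274937 and 102725 (4.52%). Boxes followed: 1657 of the 4494 control-covered boxes in the chromosome 4 array were also covered in ERCC6L2-/- cells, against 201 of the 5776 on chromosome 9. These shares count bases and boxes, not reads. On chromosome 9 the control mean was 588 reads over bases covered in both groups and 111 reads over all control-covered bases. On chromosome 4 these means were 95.5 and 85.4 reads. By reads, the kept share of control coverage was therefore larger, mainly on chromosome 9, and the contrast between the chromosomes smaller.

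On chromosome 4 the loss was fragmented. Control coverage formed 6 domains when gaps of up to 1 kb were joined. The longest ran over chr4:50605743-51285429 (679687 bases, mean 83.2 reads), the next over chr4:50040070-50604534 (564465 bases, mean 79.7 reads) and the last of these 3 over chr4:49731690-50020433 (288744 bases, mean 77.3 reads). None of the 6 overlapped an annotated gene. The nearest genes were the processed pseudogene SNX18P25 on the short-arm side and DCUN1D4, which encodes a protein involved in cullin neddylation, on the long-arm side, 99071 bases from the last domain. Within these domains the ERCC6L2-/- cells kept 19 islands of 5377 to 108837 bases, with a median of 33794 bases. They were set apart by 11903 to 263771 bases without ERCC6L2-/- coverage, with a median of 53908 bases. The longest domain was covered over 46.8% of its length in ERCC6L2-/- cells, the other 4 domains of the array over 24.7% to 34.1%.

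The longest island lay at chr4:50634155-50742991 (108837 bases), where coverage averaged 126 reads in control and 111 in ERCC6L2-/- cells. The next in length were at chr4:50918570-50978733 (60164 bases, 71.1 and 57.3 reads), chr4:49787563-49843123 (55561 bases, 77.7 and 64.2 reads), chr4:50476856-50530866 (54011 bases, 75.2 and 60.9 reads) and chr4:50801080-50847786 (46707 bases, 86.4 and 70.8 reads). The deepest island was short, 8961 bases at chr4:51706365-51715325, with 215 reads in control and 208 in ERCC6L2-/- cells. It was followed in depth by a 5377-base island at chr4:51073643-51079019 (139 and 120 reads), a 33794-base island at chr4:50550634-50584427 (135 and 118 reads), the longest island itself, and a 34600-base island at chr4:50364004-50398603 (104 and 91.7 reads). Only 1 of these 9 islands was thus among both the 5 longest and the 5 deepest. All 19 were lower in ERCC6L2-/- than in control cells, by a log2 ratio from -0.31 to -0.05 and a median of -0.27 with the values as deposited. The log2 ratio over all kept windows of the series, given below, was farther from 0 than any of these.

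The kept share changed along the chromosome 4 array without a single direction. In steps of 100 kb from the first covered base of the array, it was 76.2% in the first step, 12% in the second and 0% in the third. It then ran from 22% to 55% up to 900 kb, reached 98% between 900 and 1000 kb, and lay between 30% and 59% in the next 500 kb. In the last 500 kb it was 100% in 1 step that held only 13 windows, 44.9% in another and between 10% and 17.6% in the others, and the final 12 windows had no ERCC6L2-/- coverage. Control coverage hardly followed these swings, since the median of the window means stayed between 60.1 and 77.8 reads in all 21 steps. One 133632-base stretch, chr4:51285430-51419061, held 334 boxes, and yet no coverage was listed there in either group.

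On chromosome 9 the loss had a sharp spatial limit. The main array, chr9:43382974-45518501 (2135528 bases, 5497 boxes), had a mean of 79.7 reads in control cells, and 0 of its 2137 windows had any ERCC6L2-/- coverage. All 104 kept windows lay in 1 island in a block on the long arm, chr9:60548441-60688432 (139992 bases, 275 boxes). This block is separated from the array by a stretch of 15029939 bases of which 99.8% are unknown in the assembly. Its control mean was 589 reads, 7.39 times that of the array. A further covered site, chr9:40558706-40560982 on the short arm (2277 bases, mean 207 reads, 5 boxes), overlapped the lncRNA genes ENSG00000290546 and BMS1P14 and had no ERCC6L2-/- coverage. The other 2 domains overlapped no annotated gene.

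Within the long-arm block, the ERCC6L2-/- island covered chr9:60548485-60651246 (102762 bases). It began 44 bases after the start of the block and stopped 37186 bases before its end. The control mean was 588 reads over the island and 592 reads over the rest of the block, so the depth in control cells was nearly equal on both sides of the limit. By window, the 104 kept windows had a control median of 479 reads and the 37 lost ones of 504 reads. The mean over the island in ERCC6L2-/- cells was 239 reads. The array and the block also differed in layout. All boxes of the array lay on the plus strand and all 275 of the block on the minus strand. The lag at which the sequence best matched itself was 680 bases in the array (71.1% of bases identical) and 171 bases in the block (56.9%), against 171 bases in the chromosome 4 array (49.04%). Boxes were spaced by 342 or 338 bases in most of the chromosome 9 array (37.5% and 36.6% of spacings), by 338 or 342 bases in the block (35.4% and 16.1%), and by 170, 342 or 341 bases on chromosome 4 (15.9%, 12.98% and 12.7%). The median spacing was 342, 342 and 341 bases, so it did not set the arrays apart.

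**Figure D1:**
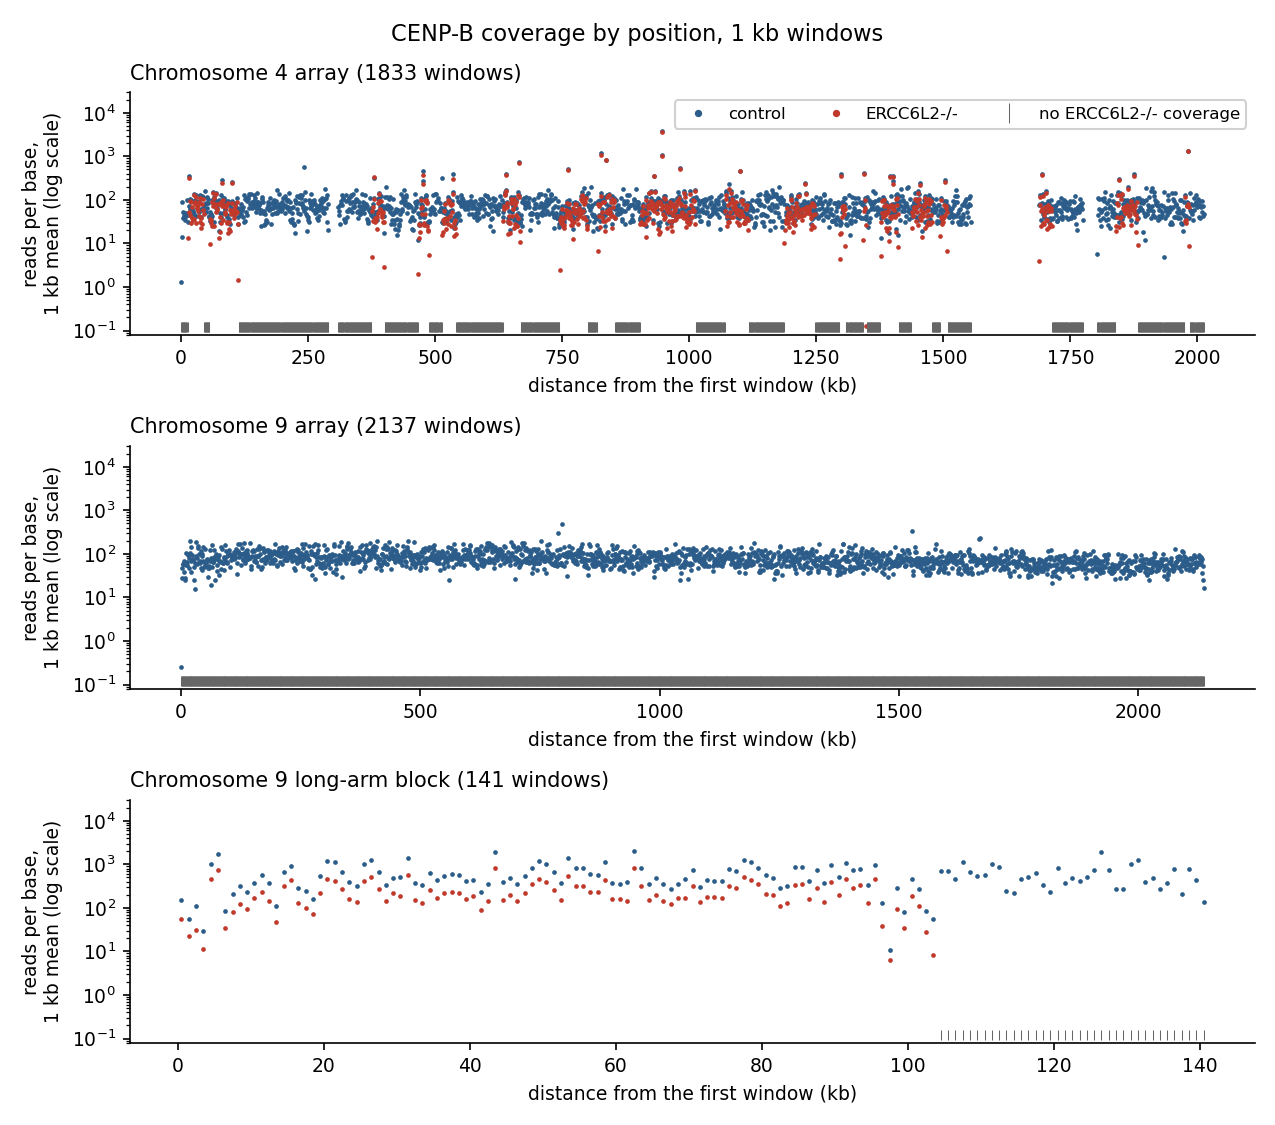
Mean coverage in reads per base (log scale) of each 1 kb window against its distance in kb from the first window of the chromosome 4 array, the chromosome 9 array and the chromosome 9 long-arm block. Blue points are control, red points ERCC6L2-/- cells, and grey ticks mark windows without ERCC6L2-/- coverage: they interrupt the red points of chromosome 4 repeatedly, fill the chromosome 9 array, and cover the last 37 of the 141 windows of the block.

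Control depth did not set kept and lost windows of chromosome 4 apart, except at its upper end. The median of the control window means was 66.27 reads in kept windows and 66.38 reads in lost windows, a ratio of 0.998. From the 10th to the 90th percentile, kept windows spanned 34.5 to 132 reads and lost windows 34.0 to 114 reads. In the array, the kept share was 29.8% of 47 windows under 25 reads, 39.9% of 484 windows from 25 to 50 reads, 34.7% of 550 from 50 to 75, 35.9% of 412 from 75 to 100 and 38.5% of 270 from 100 to 150 reads. It was 52.2% of the 46 windows from 150 to 300 reads and 91.7% of the 24 windows above 300 reads. These 22 kept windows lay in 15 of the 19 islands, with at most 4 in one island. The 2 deep array windows that were lost had 567 reads (starting at 49972001) and 316 reads (starting at 50243001).

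At the level of islands, the mean, the median base and the highest base gave different pictures. The control mean was 71.1 to 215 reads over the 19 islands, with a median of 88.3, and 48.5 to 82.9 reads over the 23 stretches of at least 1 kb in the array domains without an island, with a median of 69.9. A further stretch of 571 bases at the start of 1 domain had a mean of 123 reads and a median base of 16 reads, and is not among the 23. Of the islands, 12 lay above the highest of the 23 stretches and 7 did not. The median base, which a few high values cannot move, had 47 to 62 reads over the islands, with a median of 55, and 35 to 61 reads over the 23 stretches, with a median of 56. The highest base in control, by contrast, nearly separated islands from the other stretches. It had at least 1281 reads in each of the 19 islands. In the array stretches without an island it had at most 1086 reads, with exceptions of 3511 and 1680 reads. These exceptions were the stretches that hold the lost deep windows. How this relates to the authors' peak filter was not tested. Neighbouring windows share fragments and islands, so that they are not independent observations of depth.

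On chromosome 9, depth separated kept from lost windows only as far as it separated the block from the array. Over the whole chromosome the control median was 479 reads in kept and 75.1 reads in lost windows, a ratio of 6.38, whereas inside the block alone the ratio was 0.950. The array of chromosome 9, with no window kept, was not shallower by the median than that of chromosome 4. Its window means had a control median of 74.6 reads, against 66.3 reads for the chromosome 4 array. Between 75 and 100 reads, 148 of 412 array windows were kept on chromosome 4 and 0 of 597 on chromosome 9. Between 100 and 150 reads, the counts were 104 of 270 and 0 of 384. Very deep windows were rarer in the chromosome 9 array, since above 300 reads the counts were 22 of 24 and 0 of 3. The highest control window mean was 3857 reads in the chromosome 4 array and 497 reads in the chromosome 9 array. In the block, 83 of 112 windows above 300 reads were kept, as were all 7 windows under 100 reads.

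**Figure D2:**
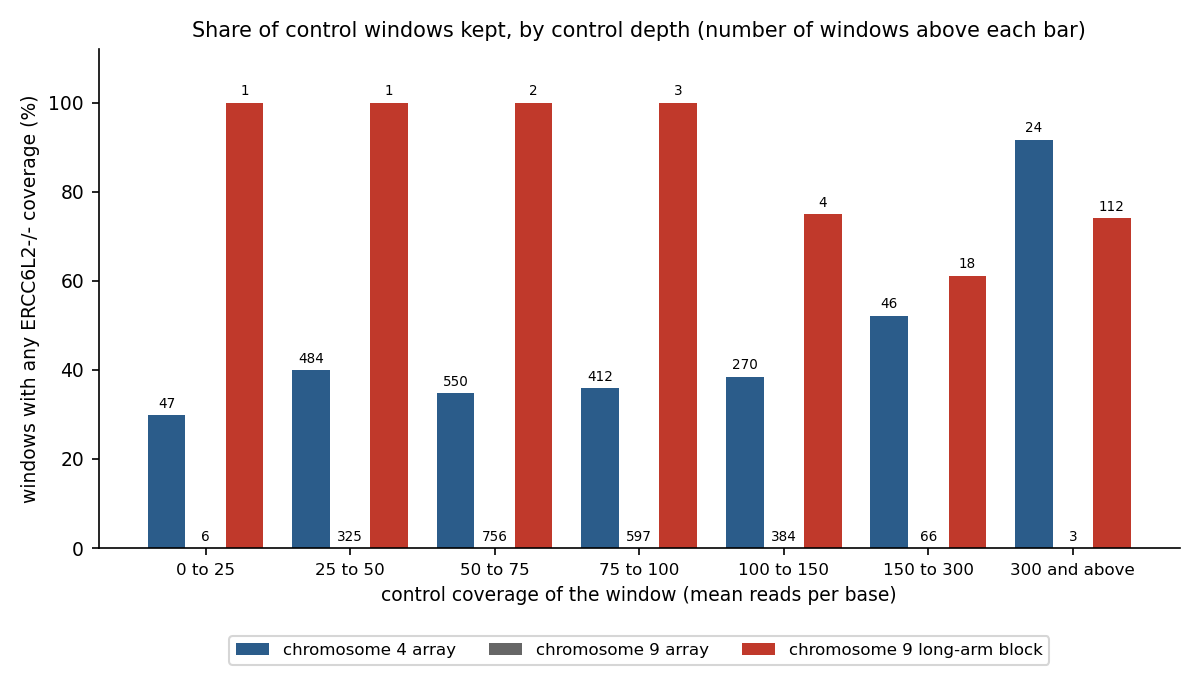
Share of control-covered 1 kb windows with any ERCC6L2-/- coverage (%), by control mean coverage of the window in reads per base, for the chromosome 4 array (blue), the chromosome 9 array (grey, 0% throughout) and the chromosome 9 long-arm block (red), with the number of windows above each bar. Chromosome 4 stays between 29.8% and 39.9% up to 150 reads and reaches 91.7% above 300 reads; block bars under 100 reads rest on 1 to 3 windows each.

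The single deepest windows showed the range of outcomes. On chromosome 4 the highest control mean, 9089 reads, belonged to the window starting at 49708001, which holds all but the last 49 bases of a separate 935-base site, chr4:49708115-49709049, with 2 boxes. It had no coverage in ERCC6L2-/- cells. The second, starting at 50677001, had 3857 reads in control and 3700 in ERCC6L2-/- cells, and the third, starting at 51712001, had 1327 and 1343 reads. The third in ERCC6L2-/- cells, starting at 50556001, had 1199 and 1047 reads. On chromosome 9 all the deepest windows lay in the block. The one starting at 60610001 had 2036 reads in control and 820 in ERCC6L2-/- cells, that at 60674001 had 1937 reads and none, and that at 60591001 had 1901 and 811 reads. The third in ERCC6L2-/- cells, at 60553001, had 1697 and 761 reads.

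Where coverage was kept, its level differed between the chromosomes. Over the bases covered in both groups, coverage on chromosome 4 averaged 95.5 reads in control and 80.8 in ERCC6L2-/- cells, a log2 ratio of -0.24 as deposited that turned positive when each group was scaled to its total coverage (0.88) or to shared bases beyond the box-rich 100 kb bins (0.33), which are only 9933 deeply covered bases of chromosomes 1 and 17 with 7 boxes among them. Chromosome 9 averaged 588 and 240 reads, a log2 ratio of -1.30, which stayed negative under both scalings (-0.18 and -0.73). A scaling moves both chromosomes alike, and their log2 ratios differed by 1.05 throughout. By window, the median log2 ratio was -0.32 on chromosome 4, from -0.67 at the 10th to -0.12 at the 90th percentile, and -1.32 on chromosome 9, from -1.42 to -1.16. Over all windows covered in both groups in the series it was -0.64. Relative to this shift, chromosome 4 stood at 0.32 and chromosome 9 at -0.67 on the log2 scale. The value was -0.31 over chromosomes 13, 14, 21 and 22, and -0.68 over chromosomes 2 and 20. Over shared bases, chromosome 2 had a log2 ratio of -0.58 and chromosome 20 of -1.12. Chromosome 18 had -1.43, chromosome 15 had -1.50 and chromosome 8 had -0.24. Values like those of chromosomes 4 and 9 were thus also found elsewhere in the family. A ratio of mean coverage plus 1 under 0.5 was found in 25 of the 696 kept windows of chromosome 4 and 103 of the 104 on chromosome 9, against 7.28% of all windows covered in both groups.

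In the kept windows of both chromosomes, ERCC6L2-/- coverage closely followed control coverage. Over windows covered at every base in both groups, the correlation of log2 means was 0.985 on chromosome 4 (576 windows) and 0.994 on chromosome 9 (98 windows), given as a description, since the windows share libraries, mapping and sequence. The size of the difference behaved differently with depth. On chromosome 4, all 696 kept windows were used here, also those covered only in part in ERCC6L2-/- cells. The median log2 ratio was -0.62 in the 10% with the lowest control depth and -0.13 in the 10% with the highest. The median of control minus ERCC6L2-/- coverage moved from 9.63 to 17.9 reads between these sets, while the control median went from 30.7 to 163 reads. On chromosome 9 the log2 ratio stayed between -1.39 and -1.24 in all 10 depth classes of this kind, and the difference went from 49.8 to 767 reads. Coverage was higher in ERCC6L2-/- cells in 4 of the 696 kept windows of chromosome 4 and in 0 of the 104 of chromosome 9.

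**Figure D3:**
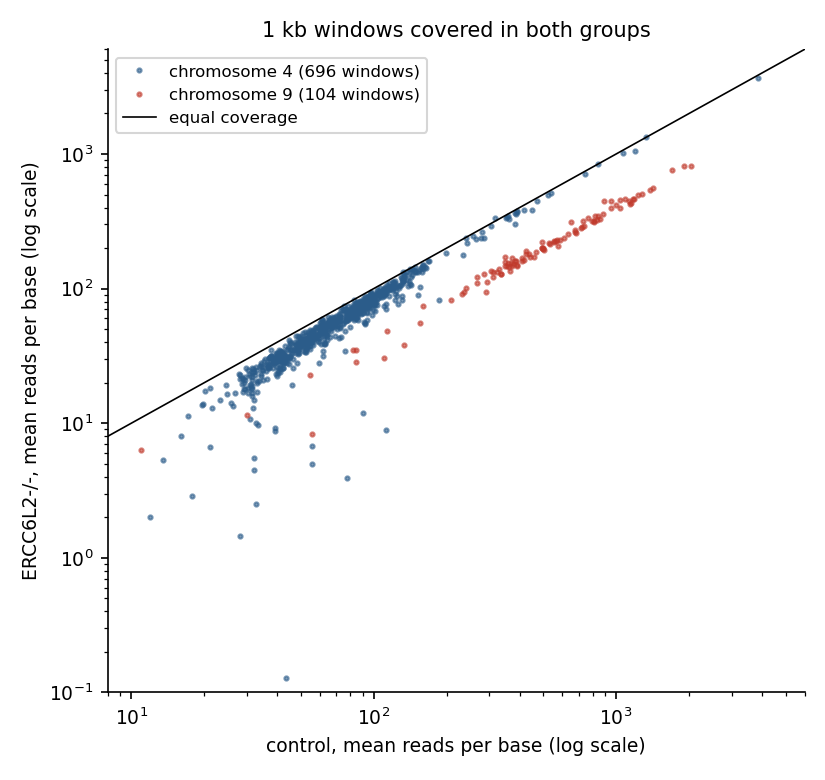
Mean coverage in reads per base of the 1 kb windows covered in both groups, control on the horizontal and ERCC6L2-/- on the vertical axis (both log scales), with a line of equal coverage. The 696 windows of chromosome 4 (blue) approach the line at high coverage, and the 104 windows of chromosome 9 (red) run parallel below it, with a median log2 ratio of -1.32.

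With 1 exception, the edges of the chromosome 4 islands did not coincide with an end of control coverage. Over the 38 edges, the median control coverage was 28.4 reads in the 500 bases just outside the island and 41.9 reads in the first 500 bases inside it, a dip that reached both sides of the edge. From 1000 to 1500 bases, the control median was 66.0 reads outside and 62.7 reads inside. ERCC6L2-/- coverage had a median of 28.9 reads in the first 500 bases inside and 47.9 reads from 1000 to 1500 bases inside. Control coverage was higher inside than outside over 1000 bases at 22 of the 38 edges. In each 500-base step from 1000 to 5000 bases outside, control coverage was 0 at 1 edge.

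**Figure D4:**
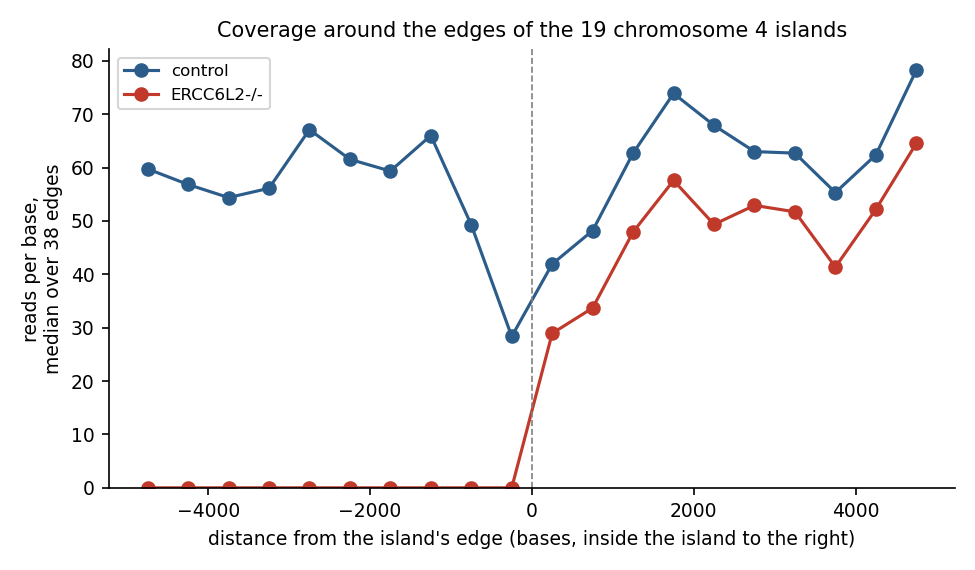
Coverage in reads per base around the 38 edges of the 19 chromosome 4 islands, as the median over edges in steps of 500 bases, with positive distances inside the island. Control coverage (blue) dips to 28.4 reads just outside the edge and returns to 66.0 reads farther out, where ERCC6L2-/- coverage (red) is 0.

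The sequence of kept and lost windows was almost the same on chromosome 4. In the array, the GC content was 37.5% in both sets, and there were on average 2.45 boxes in kept and 2.47 in lost windows. The kept share was 38.4% in windows with 1 box, 38.9% with 2, 37.1% with 3 and 37.0% with 4. It was 36.8% for copies of the commonest box, 37.0% for the box with A17T and 36.8% for that with A12G. Control coverage at the box was likewise near equal, with medians of 51, 52 and 51.5 reads for these 3 boxes. In the chromosome 9 block, 186 of 250 copies of the commonest box were kept and 10 of 18 with A11C, and in the array 0 of 5035 and 0 of 330. The identical 17 bases were therefore covered in ERCC6L2-/- cells at some copies and not at others on both chromosomes.

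Longer identical stretches showed the same. On chromosome 4, 82.2% of the control-covered positions lay in a 150-base word that occurs more than once on the chromosome. Of the 124552 repeated words, 67.2% had both kept and lost copies. The control coverage of kept and lost copies of the same word was 38.6 and 39.0 reads at the median, a median log2 difference of 0.01. Words that occur once on the chromosome were kept at 37.4% of positions and repeated words at 36.8%. In the chromosome 9 block, 11928 words had both kept and lost copies, with control medians of 328 and 337 reads. Between the block and the array, 23226 words of 150 bases were shared and covered, and their control median was 495 reads in the block and 48.0 reads in the array. Thus identical sequence was listed with very different control depths on the same chromosome. How reads that map to several sites were placed is not given in the sources used here, and its part in these values was not tested.

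The chromosomes shared short words but few long ones. On average 16.2% of the 50-base words in the windows of the chromosome 4 array also occur on chromosome 9, and 28.6% of those in the chromosome 9 array on chromosome 4. For words of 150 bases these shares were 0.0744% and 0.876%. The chromosome 9 array shared far more with unplaced sequences of the assembly, 77.3% of its 50-base and 31.4% of its 150-base words, against 10.6% and 0.0346% for the chromosome 4 array.

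Coverage around the boxes had the same shape in both groups. On chromosome 4 the median over boxes was 52 reads at the centre of kept boxes and 50 reads at lost boxes in control cells, with a dip to 41 and 40 reads at 15 bases past the centre and a return to 58 and 56 reads at 35 bases. In ERCC6L2-/- cells the kept boxes had 41, 33 and 45 reads at these positions. The dip was also present at the lost boxes of the chromosome 9 array in control cells, with 57, 46 and 75 reads. In the block, kept boxes had 515, 346 and 464 reads in control and 201, 136 and 195 reads in ERCC6L2-/- cells.

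**Figure D5:**
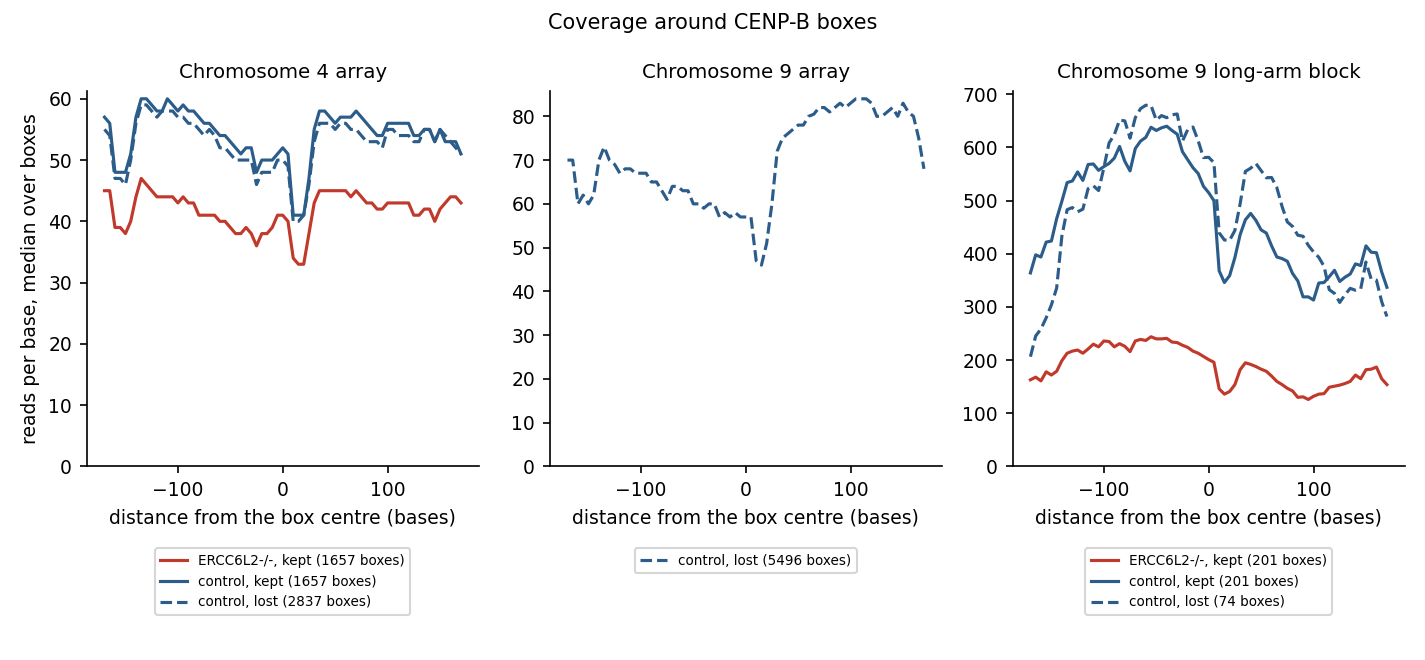
Coverage in reads per base around CENP-B boxes, as the median over boxes against distance in bases from the box centre, read along the strand of the box, for control (blue) and ERCC6L2-/- cells (red). Solid lines are boxes kept and dashed lines boxes lost in ERCC6L2-/- cells; all profiles dip just past the centre, and on chromosome 4 the control lines of kept and lost boxes nearly coincide.

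Coverage in ERCC6L2-/- cells alone was found at 1 place on these chromosomes, 28 windows of chromosome 4 against 0 on chromosome 9 and 0.424% of all windows. It spanned chr4:49631354-49658097 (26744 bases), ended 50017 bases before the first control site, overlapped no gene and had no box. Unknown bases of the assembly lie close after its end and close before that site. How much of the stretch between they fill was not measured, so the distance does not show sequence without coverage. The mean over the region covered in ERCC6L2-/- cells alone was 63.0 reads, close to that of many islands in the array. Its sequence matched itself best at a lag of 5 bases (72.7% identical), and a pentamer repeat, GAATG or its complement, made up 48.3% of it. This is the kind of short tandem repeat that makes up classical satellites, and not α-satellite. The 171 bases around its highest value, shown because they differ from the α-satellite above and chosen after their values were seen, read as follows on the plus strand.
Chromosome 4, covered in ERCC6L2-/- only (chr4:49634501-49634671): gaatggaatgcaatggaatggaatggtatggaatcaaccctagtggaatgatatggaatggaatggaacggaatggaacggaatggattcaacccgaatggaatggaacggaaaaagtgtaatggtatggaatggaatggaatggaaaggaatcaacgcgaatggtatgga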

How the data were processed

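CENP-B ChIP-seq was measured in 3 control and 3 ERCC6L2-/- immunoprecipitates of U2OS cells, and the inputs were not used here. Per the submitters' processing notes, reads were processed with FastQC, Trim Galore, Bowtie2 and MACS2 on GRCh38. The authors filtered peaks by FDR, merged those of a group's replicates with MSPC and deposited the coverage signal, in whole reads per base, as 1 pooled value per base and group. The study describes its tracks as averages over the triplicates. Depth scaling, duplicate removal, read placement and library depth are not given in the sources used here, so the precision of a value is unknown.

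Closed intervals were expanded to bases in numpy 2.4.6 and pandas 2.3.3 (Python 3.11.15), unlisted bases were set to 0, and values were averaged over 1 kb windows from position 1. Words of 50 and 150 bases were counted on both strands. Genes came from GENCODE release 44. Reading, window calls and motif search were tested on simulated data. No test, model or filter on low values was applied. Regions were named by a rule: the 3 longest control domains, the 5 longest and 5 deepest islands, the 3 deepest windows per group and chromosome, and regions covered in ERCC6L2-/- only. Other features were named after their values were seen. The members and lists were chosen with earlier results of these data known.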

Additional observations from a re-analysis of the deposited data

How the results depend on the processing

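With 1 value per base and group, leaving out a replicate could not be run. No paired analysis was possible because each file gives 1 value per group. For chromosome 4, the kept share was 46.3% with windows of 10 kb. Its log2 ratio over shared bases was -0.24 with at least 10 reads per base, -0.18 with at least 50 reads and -0.27 with values capped at 760 reads, the 99th percentile. It reversed to 0.88 when each group was scaled to total coverage and to 0.33 when scaled to the 9933 shared bases of assembled chromosomes outside bins with at least 10 boxes. The ratio of control depth in kept to lost windows passed above 1 with windows of 10 kb (1.14) and with means in place of medians (1.17, an alternative added after seeing the data). Within counting error, it was also above 1 with at least 50 reads per base (1.07) and with at least 50% of the window covered (1.02). For chromosome 9, the log2 ratio was -1.30 with at least 50 reads per base, -0.89 capped, -0.18 scaled to total coverage and -0.73 scaled outside those bins. The depth ratio was 7.74 with windows of 10 kb and 4.84 capped. Restricted after seeing the data, the long-arm block gave a kept share of 73.8% and a depth ratio of 0.950, and the array a kept share of 0%. In all, 23 recomputed values stayed within counting error of those reported, taken as 95% binomial intervals that treat windows and reads as independent. For the log2 ratios these intervals take coverage summed over bases as the number of reads, so they are too narrow. The 23 include the restriction to bins with at least 10 boxes, which left every value unchanged. The depth of the libraries is unknown, the peaks were called separately in each group, and a window lost here may hold reads under the authors' threshold.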

Other observations

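Several small unplaced sequences of the assembly resemble the chromosome 9 array. Of the 50-base words of the array, at least 1% occurred on each of 19 unplaced sequences. The longest of them, KI270747v1 (198735 bases), held 74.9% of these words, but no coverage was listed on it in either group. Coverage was listed on 4 of the 19 in control cells and on 0 in ERCC6L2-/- cells. This was not particular to them. Other unplaced sequences, such as KI270317v1, KI270412v1, KI270418v1 and KI270544v1, were also covered in control cells only. Still others, such as KI270411v1 and KI270465v1, were covered in both groups. In control cells the mean over the covered bases was 815 reads on KI270383v1 (1549 bases), 2005 reads on KI270391v1 (1400 bases), 1541 reads on KI270395v1 (1115 bases) and 365 reads on KI270522v1 (5027 bases). The choice of these sequences was made with their values in view.

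Of the 28 windows of chromosome 4 covered in ERCC6L2-/- cells alone, 27 consisted of the GAATG pentamer over more than 20% of their length, as did 30 of the 31 such windows on chromosome 2. None of the 57 such windows on chromosomes 1, 13 and 17 did. Among the 35122 windows of assembled chromosomes covered in control, 8 passed that share, 6 on chromosome 1 and 2 on chromosome 5, and none on chromosomes 4 and 9.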
